A study of Mus musculus with 12 samples.

Results

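The 35 genes described here encode the glucose and lactate transporters, the enzymes that turn glucose into lactate, and a set of genes that cells raise when oxygen is low. They were taken from a fixed list of mouse gene symbols and matched to array probes through the accession printed for each probe. All 35 were measured, among 14444 genes tested and 21367 genes named by the probes, and each was well above background on all 12 arrays. Their 57 probes included 55 that passed the filter on dim probes, and the brightest kept probe stood for each gene.

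RNA came from mouse embryonic fibroblasts (MEFs), connective tissue cells cultured from C57BL/6 embryos at E12.5 to E13.5, and every culture carried at least 1 viral vector. The shp53 cells carried a hairpin construct that lowers p53, and the RASV12 cells expressed an oncogenic form of RAS. The shp53-first cells received shp53 and then RASV12 (named T cells by the submitters), and the RASV12-first cells received RASV12 and then shp53 (TS cells). Each of the 4 groups had 3 arrays, stated by the submitters to be independent biological replicates, and the series title sets cells transformed after senescence against cells transformed without it. No group without a vector was measured, so a difference between groups does not tell which group moved. The promoters that drive the vectors and the litters of the embryos are not given in the sources used here.

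Glycolysis splits glucose into pyruvate in the cytosol, and lactate dehydrogenase then turns pyruvate into lactate, which leaves the cell through monocarboxylate transporters. Hypoxia-inducible factors (HIFs) are transcription factors of an oxygen-regulated alpha subunit and a stable beta subunit encoded by Arnt. When oxygen is present, prolyl hydroxylases of the Egln family mark the alpha subunit for destruction through Vhl. Without that mark HIF accumulates and raises most glycolytic genes along with genes for angiogenesis, pH control and collagen modification. RAS signalling is known to raise glucose uptake, and p53 is known to restrain it in several cell types.

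One form of the DNA core that HIF binds is ACGTG, so the 250 bases upstream of each gene's start were searched for ACGTG on both strands (CACGT on the printed strand marks a match on the other). Promoter sequences are those of RefSeq on GRCm38.p6, and 33 of the 35 genes had a window there. Slc2a3 and Ndrg1 had none in that table. The core was present in 18 of 33 members (54.5%), against 18.5% of 27025 genes, and in 20 of 46 member windows (43.5%) against 16.6% of 32851 windows. Base composition was not matched between these sets, and a match is a description of the letters, not a bound site. The members were listed as glycolysis and hypoxia response genes, so a higher share may come from that choice and tests nothing in these arrays. In 3 members the match lies inside CACGTG, the E-box read by other factors, which holds the core on both strands. The windows below belong to 5 genes called in at least 2 comparisons and to Bnip3 and P4ha1, which varied by over 2 log2 units between arrays of the RASV12-first cells. Only windows with a match are shown. Gpi1, Eno2, Car12 and Adm, also called in at least 2 comparisons, had no match. Neither had Aldoc and Pfkp, which also varied by over 2 units between those arrays. Matches are in capitals, the sequences run 5′ to 3′ in the direction of the gene, and Bnip3 shows the E-box form.
Slc2a1, chr4:119108495-119108744, plus strand: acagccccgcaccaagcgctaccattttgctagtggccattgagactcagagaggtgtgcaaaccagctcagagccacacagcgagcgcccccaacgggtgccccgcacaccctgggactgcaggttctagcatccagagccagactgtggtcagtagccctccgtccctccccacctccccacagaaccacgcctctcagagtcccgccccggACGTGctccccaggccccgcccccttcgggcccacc
Hk2, chr6:82774455-82774704, minus strand: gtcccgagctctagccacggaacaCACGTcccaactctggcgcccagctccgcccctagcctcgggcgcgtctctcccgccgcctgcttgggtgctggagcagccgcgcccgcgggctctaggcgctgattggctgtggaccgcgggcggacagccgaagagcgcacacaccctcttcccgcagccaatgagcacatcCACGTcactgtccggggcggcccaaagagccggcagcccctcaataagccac
Pgk1, chrX:106186850-106187099, plus strand: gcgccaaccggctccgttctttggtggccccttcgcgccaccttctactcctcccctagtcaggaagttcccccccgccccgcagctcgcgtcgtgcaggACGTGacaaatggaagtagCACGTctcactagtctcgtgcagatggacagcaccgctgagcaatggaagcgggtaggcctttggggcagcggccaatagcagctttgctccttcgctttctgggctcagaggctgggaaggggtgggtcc
Slc16a3, chr11:120948817-120949066, plus strand: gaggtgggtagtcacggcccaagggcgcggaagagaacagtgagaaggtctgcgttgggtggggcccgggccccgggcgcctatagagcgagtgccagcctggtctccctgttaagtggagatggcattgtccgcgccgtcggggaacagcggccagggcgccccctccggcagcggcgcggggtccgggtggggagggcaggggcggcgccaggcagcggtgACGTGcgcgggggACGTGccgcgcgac
Car9, chr4:43506776-43507025, plus strand: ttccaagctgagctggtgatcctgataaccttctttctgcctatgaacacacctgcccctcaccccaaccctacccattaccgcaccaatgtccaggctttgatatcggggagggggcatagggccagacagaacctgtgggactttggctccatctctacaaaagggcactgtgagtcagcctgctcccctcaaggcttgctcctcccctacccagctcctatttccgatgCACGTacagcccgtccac
Bnip3, chr7:138909507-138909756, minus strand: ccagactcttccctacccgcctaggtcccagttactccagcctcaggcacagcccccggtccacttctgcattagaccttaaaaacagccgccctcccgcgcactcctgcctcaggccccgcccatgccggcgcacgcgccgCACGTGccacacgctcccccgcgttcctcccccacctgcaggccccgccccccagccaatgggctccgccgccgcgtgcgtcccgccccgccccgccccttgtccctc
P4ha1, chr10:59323046-59323295, plus strand: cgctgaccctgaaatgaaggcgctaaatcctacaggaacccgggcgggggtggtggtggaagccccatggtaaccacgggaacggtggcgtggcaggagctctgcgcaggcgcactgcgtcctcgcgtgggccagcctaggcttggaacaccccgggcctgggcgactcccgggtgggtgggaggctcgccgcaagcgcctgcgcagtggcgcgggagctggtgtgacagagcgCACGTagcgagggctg

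Values are log2 signals less the 75th percentile of their array, and a difference of 1 is a 2-fold change. Values on different genes come from different probes, so levels are compared only within a gene. A gene was called in a comparison at a Benjamini-Hochberg adjusted p under 0.05 over all genes in limma, a linear model fitted here to all 12 arrays. The smallest two-sided p that exact permutation allows for 3 against 3 arrays is 0.1, so every p below comes from that model.

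The arrays were checked before the genes. Trp53, the target of the hairpin, had a mean of -0.56 ± 0.20 in RASV12 cells, against -3.27 ± 0.25 in shp53, -3.61 ± 0.31 in shp53-first and -3.99 ± 0.15 in RASV12-first cells (n = 3 each, SD). The mouse Hras probe, which need not read the transgene, differed by 0.53 ± 0.25 between RASV12 and shp53 cells and was not called (limma adjusted p = 0.155). All 12 fibroblast markers were well above background on every array. Even so, 6 were called lower in RASV12 and 7 in each of the groups with 2 vectors than in shp53 cells. Of all genes 12.8% were called lower in RASV12, 20.3% in shp53-first and 23.8% in RASV12-first than in shp53 cells. Epcam, Cdh1 and Cldn4 of epithelium and Tek and Tie1 of endothelium were well above background on 0 arrays. Krt18 and Esrp1 of epithelium and Pecam1 and Kdr of endothelium were so on all 12. The other markers of these lists (Krt8, Krt5, Krt14, Cdh5, Emcn, Cldn5 and Vwf) were so on 1 to 6 arrays. Macrophage markers moved with the groups. All 12 were well above background on shp53 arrays, 9 to 10 on RASV12, 6 to 7 on shp53-first and 5 on RASV12-first arrays. Of the 12, 10 were called lower in RASV12 than in shp53 cells. The log2 of their summed signal was 6.78, 3.72 and 6.78 on the shp53 arrays and 2.60 to 4.41 on the others. In every group 1 array stood apart from a close pair. It was replicate 2 of shp53 and of RASV12, and replicate 1 of both groups with 2 vectors. Across genes r was 0.993 to 0.998 within the close pairs and 0.967 to 0.981 between other arrays of a group. Whether a close pair shares a culture is not given, so the error behind each p may in part be technical. Each slide held 1 array of each group and carried the replicate number, while each group kept the same place on its slide, so place and group cannot be told apart.

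Of the 35 genes, 20 were called in at least 1 of the 6 comparisons of groups, 14 in at least 2 and 15 in none. The shares of all genes for these counts were not computed. In the single comparisons 15.8% to 45.5% of all genes were called either way. The F test over the 4 groups called 17, or 48.6% of the members, against 58.4% of all genes. RASV12 cells had the highest group mean for 23 of the 35 genes, and shp53 cells the lowest for 17. Against shp53 cells, 16 of 35 members were higher in RASV12 cells and 0 were lower (45.7% higher), where 14.3% of all genes were higher, 12.8% lower and 27.1% called either way. The median difference of the members was 0.78, against 0.05 over all genes, and 30 of 35 had arrays that did not overlap between the groups, against 51.2% of all genes. On the slides taken singly the median of the members was 0.73, 0.84 and 0.78, with 29, 30 and 29 of 35 above 0. Of the 16 calls, those of Pkm, Car9, Vegfa and Adm were kept whichever of the 12 arrays was left out. The other 12 were lost without at least 1 array. Hk1, Pfkl, Aldoa, Slc2a1 and Slc16a3 were lost without any 1 array of these 2 groups, Hk2, Gpi1 and Egln3 without replicate 1 or 3 of either, and Pgk1 and Car12 without shp53 replicate 1 or 3 or any RASV12 array. Pgam1 was lost without shp53 replicate 1 or 2 or RASV12 replicate 1 or 3, and Eno1 without RASV12 replicate 2. The count was 5 to 11 when any array of these 2 groups was left out (11 without shp53 replicate 2, 10 of them higher), where 9.87% to 14% of all genes were higher. When each close pair was averaged to 1 sample, 0 members were called and 11 were higher at an unadjusted p under 0.05, as were 11.3% of all genes. At the adjusted threshold 7.14% of all genes were called either way and 3.8% higher in that fit. Without the 4 arrays that stand apart 25 were higher and 5 lower (32.7% and 25.8% of all genes, 58.5% either way). With normexp background correction 0 were called as well, and 16 were higher and 1 lower at an unadjusted p under 0.05, as were 8.35% and 15.6% of all genes. At the adjusted threshold normexp called 1.51% of all genes higher and 3.02% either way. With quantile normalization 7 were called, all higher (13.8% of all genes higher and 13.4% lower). They were Hk2, Car9, Car12, Vegfa, Adm, Egln3 and, in addition, Pfkp, so that 10 of the 16 calls were lost, those of Hk1, Gpi1, Pfkl, Aldoa, Pgk1, Pgam1, Eno1, Pkm, Slc2a1 and Slc16a3. In these bulk samples fewer cells of a type and less RNA per cell cannot be told apart, and the part of the macrophage signal in this difference was not tested.

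**Figure D1:**
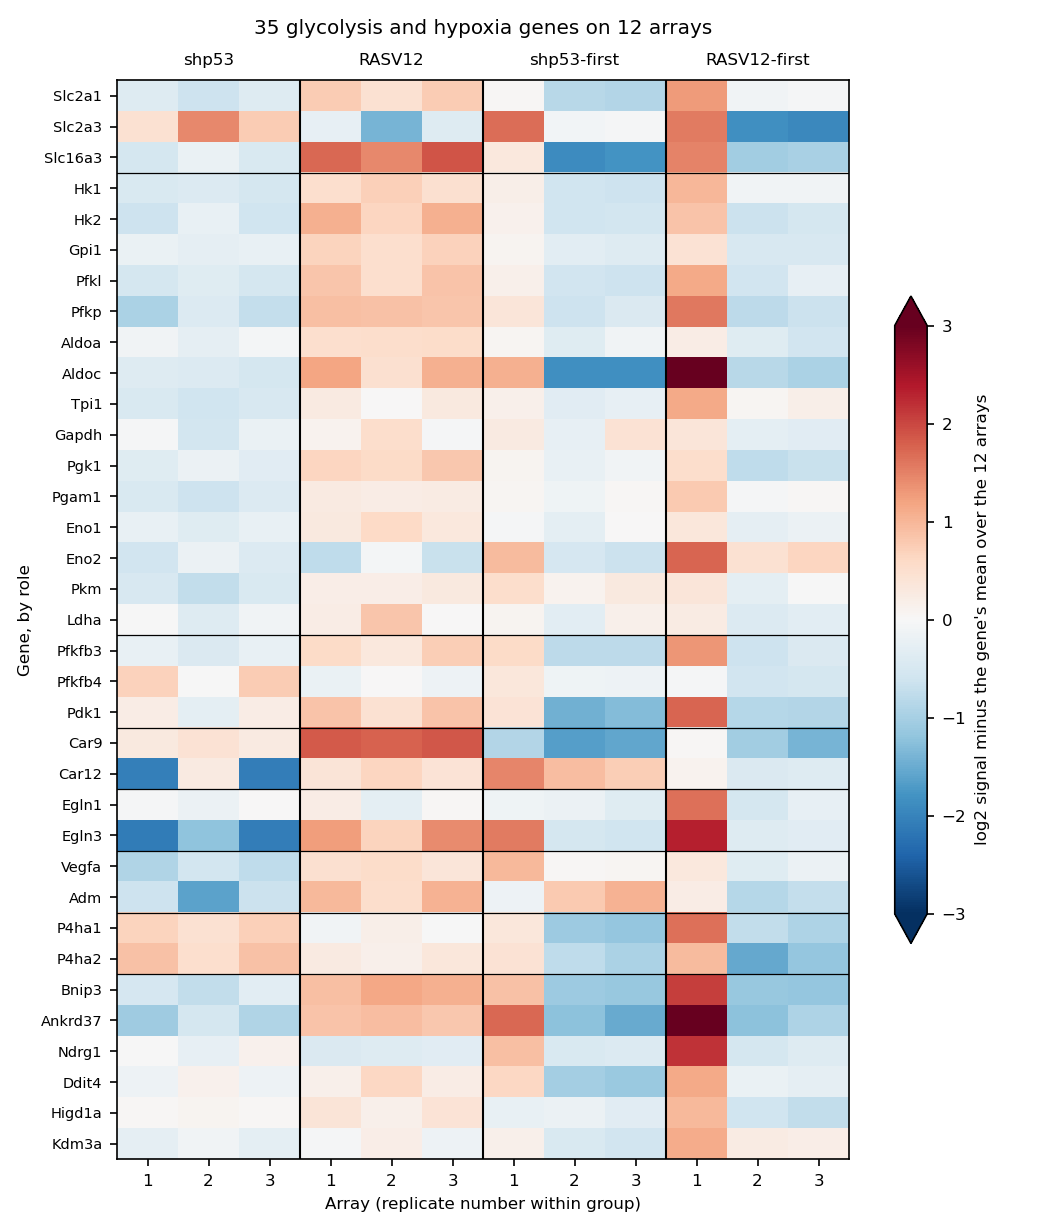
Heat map of the 35 genes (rows, grouped by role from transporters at the top to mitochondrial and stress genes at the bottom) on the 12 arrays (columns, replicates 1 to 3 of each group). Colour gives the log2 signal minus the gene's own mean over the 12 arrays, from blue (lower) to red (higher) and capped at 3 units. Replicate 1 of the RASV12-first cells is redder than its group's other arrays in 35 of 35 rows.

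Among the transporters, Slc2a1 (GLUT1, the main basal glucose carrier) and Slc16a3 (MCT4, which exports lactate) were both called higher in RASV12 than in shp53 cells, and both lower in shp53-first than in RASV12 cells. Slc2a1 read 3.58, 3.34 and 3.57 on shp53 replicates 1, 2 and 3, 4.72, 4.42 and 4.73 on RASV12, 4.00, 3.15 and 3.09 on shp53-first and 5.24, 3.86 and 3.93 on RASV12-first arrays. All RASV12 arrays lay above all shp53 and shp53-first arrays, while RASV12-first replicate 1 was the highest of the 12. The log2 difference of RASV12 from shp53 cells was 1.13 ± 0.36 (SE, adjusted p = 0.0396, 2.18-fold), and shp53-first cells were lower than RASV12 cells at -1.21 ± 0.36 (adjusted p = 0.0321).

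Slc16a3 read 1.32, 1.63 and 1.38 on shp53, 3.57, 3.28 and 3.73 on RASV12, 2.14, -0.04 and 0.04 on shp53-first and 3.33, 0.78 and 0.87 on RASV12-first arrays. The groups with 1 vector did not overlap, and in both groups with 2 vectors replicate 1 lay over 2 units above the other arrays. The difference of RASV12 from shp53 cells was 2.08 ± 0.70 (adjusted p = 0.0498, 4.24-fold), a call lost when any array of these groups was left out. The shp53-first cells were 7.03-fold lower than RASV12 cells, at -2.81 ± 0.70 (adjusted p = 0.0159). Slc2a3 (GLUT3, a high-affinity glucose carrier) was called in no comparison. Its means were -2.36 ± 0.50 in shp53, -3.92 ± 0.63 in RASV12, -2.72 ± 1.01 in shp53-first and -3.99 ± 1.98 in RASV12-first cells (n = 3 each, SD). Between the groups with 1 vector its order was the reverse of that of Slc2a1.

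Of 15 glycolytic enzymes, 9 were higher in RASV12 than in shp53 cells and 0 lower (14.3% and 12.8% of all genes). The 9 were Hk1, Hk2, Gpi1, Pfkl, Aldoa, Pgk1, Pgam1, Eno1 and Pkm, with log2 differences of 0.67 to 1.41. They reach from the first step of the pathway to the last before lactate. Of the 9 calls, only that of Pkm was kept whichever array was left out, and only that of Hk2 with quantile normalization. Hk2, the inducible hexokinase that traps glucose in the cell, read -0.23, 0.18 and -0.20 on shp53, 1.46, 1.05 and 1.48 on RASV12, 0.52, -0.19 and -0.16 on shp53-first and 1.26, -0.24 and -0.12 on RASV12-first arrays. It was higher in RASV12 than in shp53 cells by 1.41 ± 0.37 (adjusted p = 0.0163, 2.67-fold). Against RASV12 cells it was lower in shp53-first cells, at -1.27 ± 0.37 (adjusted p = 0.029), and in RASV12-first cells, at -1.03 ± 0.37 (adjusted p = 0.0468). In the last comparison the arrays overlapped, since RASV12-first replicate 1 lay above RASV12 replicate 2.

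Gpi1, which converts glucose 6-phosphate to fructose 6-phosphate, read 5.44, 5.37 and 5.42 on shp53, 6.30, 6.15 and 6.32 on RASV12, 5.72, 5.33 and 5.27 on shp53-first and 6.07, 5.16 and 5.16 on RASV12-first arrays. All 3 RASV12 arrays lay above the other 9. The differences were 0.85 ± 0.23 from RASV12 over shp53, -0.82 ± 0.23 for shp53-first and -0.80 ± 0.23 for RASV12-first against RASV12 cells (adjusted p = 0.0209, 0.0269 and 0.0208).

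The aldolase gene Aldoa was also highest in RASV12 cells, with 6.66, 6.50 and 6.72 on shp53, 7.27, 7.29 and 7.33 on RASV12, 6.83, 6.41 and 6.66 on shp53-first and 6.997, 6.42 and 6.20 on RASV12-first arrays. Again all RASV12 arrays lay above the other 9. It was higher in RASV12 than in shp53 cells by 0.67 ± 0.20 (adjusted p = 0.0283). Against RASV12 cells it was lower in shp53-first cells, at -0.67 ± 0.20 (adjusted p = 0.0315), and in RASV12-first cells, at -0.76 ± 0.20 (adjusted p = 0.0118), and the last call was kept whichever array was left out.

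Pgk1 and Pgam1 act after glyceraldehyde 3-phosphate, the first making ATP and the second moving a phosphate group. Pgk1 read 5.34, 5.52 and 5.36 on shp53, 6.33, 6.25 and 6.49 on RASV12, 5.77, 5.47 and 5.58 on shp53-first and 6.21, 4.93 and 5.01 on RASV12-first arrays. It was higher in RASV12 than in shp53 cells by 0.95 ± 0.29 (adjusted p = 0.0319) and lower in RASV12-first than in RASV12 cells, at -0.97 ± 0.29 (adjusted p = 0.022). RASV12-first replicate 1 lay just under the RASV12 arrays and the other 2 below every shp53 array.

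For Pgam1 the order was different. It read 5.67, 5.52 and 5.73 on shp53, 6.40, 6.36 and 6.38 on RASV12, 6.19, 6.01 and 6.17 on shp53-first and 6.91, 6.10 and 6.16 on RASV12-first arrays, so that every array with RASV12 lay above the shp53 arrays. The call was made for RASV12 (0.74 ± 0.20, adjusted p = 0.0183) and for RASV12-first cells (0.75 ± 0.20, adjusted p = 0.0107) against shp53 cells, and that of the shp53-first cells was not (0.48 ± 0.20, adjusted p = 0.0783). The RASV12-first call was kept without any 1 array.

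Pkm encodes pyruvate kinase in a muscle form and a form of dividing cells, and which of them the probe reads was not tested. It was called higher than in shp53 cells in all 3 groups that carried RASV12. It read 5.07, 4.80 and 5.09 on shp53, 5.75, 5.74 and 5.83 on RASV12, 6.08, 5.66 and 5.83 on shp53-first and 5.92, 5.26 and 5.54 on RASV12-first arrays. None of the 9 arrays with RASV12 overlapped the shp53 arrays. The differences from shp53 cells were 0.78 ± 0.18 for RASV12, 0.87 ± 0.18 for shp53-first and 0.58 ± 0.18 for RASV12-first cells (adjusted p = 0.00917, 0.00406 and 0.0232). The calls of RASV12 and shp53-first cells were kept whichever array was left out, and the RASV12-first call was lost without shp53 replicate 2 or RASV12-first replicate 1 or 3. These comparisons share the shp53 arrays.

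Eno2, the enolase best known from neurons, did not follow the other enzymes. It read -0.65, -0.26 and -0.49 on shp53, -0.83, -0.14 and -0.75 on RASV12, 0.88, -0.57 and -0.72 on shp53-first and 1.68, 0.38 and 0.57 on RASV12-first arrays. All 3 RASV12-first arrays lay above the arrays with 1 vector. Eno2 was higher in RASV12-first cells by 1.34 ± 0.44 against shp53 and by 1.45 ± 0.44 against RASV12 cells (adjusted p = 0.0309 and 0.026), and both calls were lost without RASV12-first replicate 1 or without replicate 1 or 3 of the group compared with it.

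The remaining enzymes were called at most once. In RASV12 against shp53 cells Hk1, the constitutive hexokinase, differed by 1.03 ± 0.30, the phosphofructokinase subunit Pfkl by 1.20 ± 0.38 and the ubiquitous enolase Eno1 by 0.67 ± 0.17 (adjusted p = 0.0297, 0.0411 and 0.0169). The triosephosphate isomerase gene Tpi1 was higher in RASV12-first than in shp53 cells by 0.98 ± 0.26 (adjusted p = 0.0114), a call kept without any 1 array. Pfkp, the platelet-type phosphofructokinase, Aldoc, Gapdh and Ldha, the lactate dehydrogenase subunit, were called in no comparison by their brightest probe. Ldha read 6.64, 6.27 and 6.54 on shp53 and 6.86, 7.48 and 6.66 on RASV12 arrays, which did not overlap (0.52 ± 0.25, adjusted p = 0.153). Gapdh, often taken as a reference gene, had means of 6.72 ± 0.26, 7.18 ± 0.30, 7.13 ± 0.35 and 6.88 ± 0.40 (SD over 3 arrays) in shp53, RASV12, shp53-first and RASV12-first cells. Its RASV12 and shp53 arrays overlapped (0.46 ± 0.26, adjusted p = 0.216). These values rest on the brightest of 7 kept probes for Gapdh and of 3 for Ldha. With the mean of each gene's probes Gapdh was called higher than in shp53 cells in RASV12 (0.58, adjusted p = 0.0175) and in RASV12-first cells (0.46, adjusted p = 0.031), and the adjusted p ran from 0.0175 to 0.568 and from 0.031 to 1.00 over the alternatives. Ldha was then called higher in RASV12 than in shp53 cells (0.86, adjusted p = 0.00549) and lower than in RASV12 cells in shp53-first (-0.76, adjusted p = 0.0134) and RASV12-first cells (-0.94, adjusted p = 0.00255). Its adjusted p over the alternatives ran from 0.00549 to 0.428, 0.0134 to 0.720 and 0.00255 to 0.387 in these 3 comparisons. Several glycolytic genes, among them Gapdh, Ldha, Pgk1, Eno1 and Aldoa, have near-identical processed copies in the mouse genome, and a probe may read signal from a copy.

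**Figure D2:**
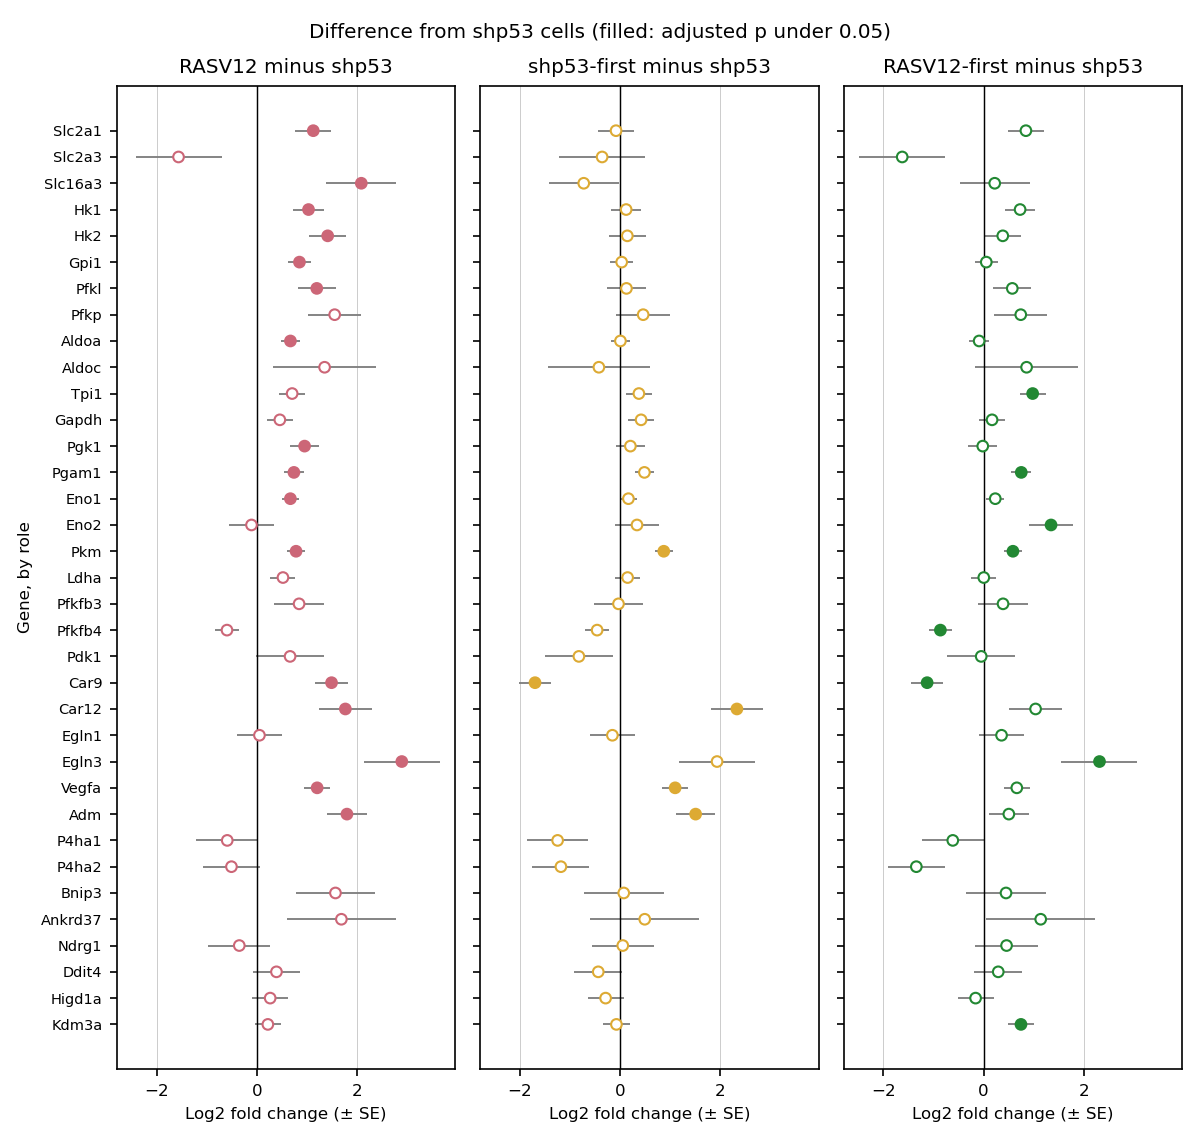
Log2 fold change against shp53 cells (horizontal axis, bars ± SE from limma, n = 3 arrays a group) for the 35 genes by role, in RASV12 (left), shp53-first (middle) and RASV12-first cells (right), with filled points where the adjusted p was under 0.05. Filled points number 16 on the left, 5 in the middle and 8 on the right, and Car9 is to the right of 0 in the first panel and to the left in the others.

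Of 3 regulators of the pathway, 1 was called, in a single comparison where 23.8% of all genes were called lower. Pfkfb4, one of the enzymes that set the level of the phosphofructokinase activator fructose 2,6-bisphosphate, was lower in RASV12-first than in shp53 cells, at -0.86 ± 0.24 (adjusted p = 0.0131). Pfkfb3, its relative in proliferating cells, and Pdk1, a kinase that inhibits pyruvate dehydrogenase, were called in no comparison. Pdk1 had means of -1.08 ± 0.30 in shp53 and -0.42 ± 0.23 in RASV12 cells (n = 3 each, SD), and its difference was 0.66 ± 0.68 (SE, adjusted p = 0.513).

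The carbonic anhydrases Car9 and Car12 sit at the cell surface, where they help to control pH. Car9, a classical HIF target, was called in 5 of the 6 comparisons. It read -2.38, -2.24 and -2.40 on shp53, -0.84, -0.90 and -0.80 on RASV12, -3.55, -4.33 and -4.23 on shp53-first and -2.63, -3.71 and -4.06 on RASV12-first arrays. All RASV12 arrays lay above all shp53 arrays, and these above all arrays of the cells with 2 vectors, whose ranges overlapped each other. Car9 was 2.81-fold higher in RASV12 than in shp53 cells (1.49 ± 0.33, adjusted p = 0.00687). Against RASV12 cells it was 9.14-fold lower in shp53-first (-3.19 ± 0.33, adjusted p = 1.43e-04) and 6.15-fold lower in RASV12-first cells (-2.62 ± 0.33, adjusted p = 1.97e-04). Against shp53 cells it was lower in shp53-first, at -1.70 ± 0.33 (adjusted p = 0.00256), and in RASV12-first cells, at -1.13 ± 0.33 (adjusted p = 0.0169), and only the last of the 5 calls was lost when arrays were left out singly (without RASV12-first replicate 2 or 3). With close pairs averaged, both differences from RASV12 cells were still called, alone among the members.

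Car12 read -2.75, -0.44 and -2.79 on shp53, -0.32, -0.07 and -0.29 on RASV12, 0.76, 0.20 and 0.04 on shp53-first and -0.62, -1.15 and -1.11 on RASV12-first arrays. On shp53 arrays replicate 2 was over 2 units above the close pair. Even so it did not overlap the RASV12 or shp53-first arrays. Against shp53 cells Car12 was higher by 1.77 ± 0.53 in RASV12 (adjusted p = 0.0306) and by 2.33 ± 0.53, or 5.02-fold, in shp53-first cells (adjusted p = 0.0063). In shp53-first cells Car9 and Car12 were thus called in opposite directions against the same shp53 arrays.

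Of the oxygen sensors, Egln3, a prolyl hydroxylase that is itself raised by HIF, read -3.26, -2.36 and -3.23 on shp53, 0.09, -0.49 and 0.24 on RASV12, 0.41, -1.69 and -1.76 on shp53-first and 1.17, -1.56 and -1.51 on RASV12-first arrays. All 9 arrays with RASV12 lay above the shp53 arrays. It had the highest difference of the members in RASV12 against shp53 cells, at 2.89 ± 0.76 (adjusted p = 0.0171, 7.43-fold), and was also higher in RASV12-first cells, at 2.31 ± 0.76 (adjusted p = 0.0299). The shp53-first cells were not called (1.93 ± 0.76, adjusted p = 0.0688). Egln1, the main sensor at normal oxygen, was called in no comparison.

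The secreted factors were Vegfa, the principal angiogenic growth factor, and Adm, which encodes the vasodilator peptide adrenomedullin. Vegfa read 1.34, 1.71 and 1.49 on shp53, 2.74, 2.80 and 2.62 on RASV12, 3.23, 2.30 and 2.30 on shp53-first and 2.56, 1.89 and 2.08 on RASV12-first arrays, all 9 with RASV12 above the shp53 arrays. It was higher than in shp53 cells by 1.20 ± 0.26, or 2.30-fold, in RASV12 (adjusted p = 0.00635) and 2.14-fold, with the same SE, in shp53-first cells (adjusted p = 0.00805), and RASV12-first cells were not called (0.66 ± 0.26, adjusted p = 0.0595).

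Adm read 2.53, 1.55 and 2.51 on shp53, 4.12, 3.67 and 4.19 on RASV12, 2.99, 3.93 and 4.19 on shp53-first and 3.36, 2.29 and 2.44 on RASV12-first arrays. It was the sole member with a shp53-first replicate 1 over 1 unit below the mean of the other arrays of its group. Against shp53 cells it was higher by 1.80 ± 0.39 in RASV12 (adjusted p = 0.00703) and by 1.50 ± 0.39 in shp53-first cells (adjusted p = 0.0133). In RASV12-first cells it was lower than in RASV12 cells, at -1.30 ± 0.39 (adjusted p = 0.0252).

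**Figure D3:**
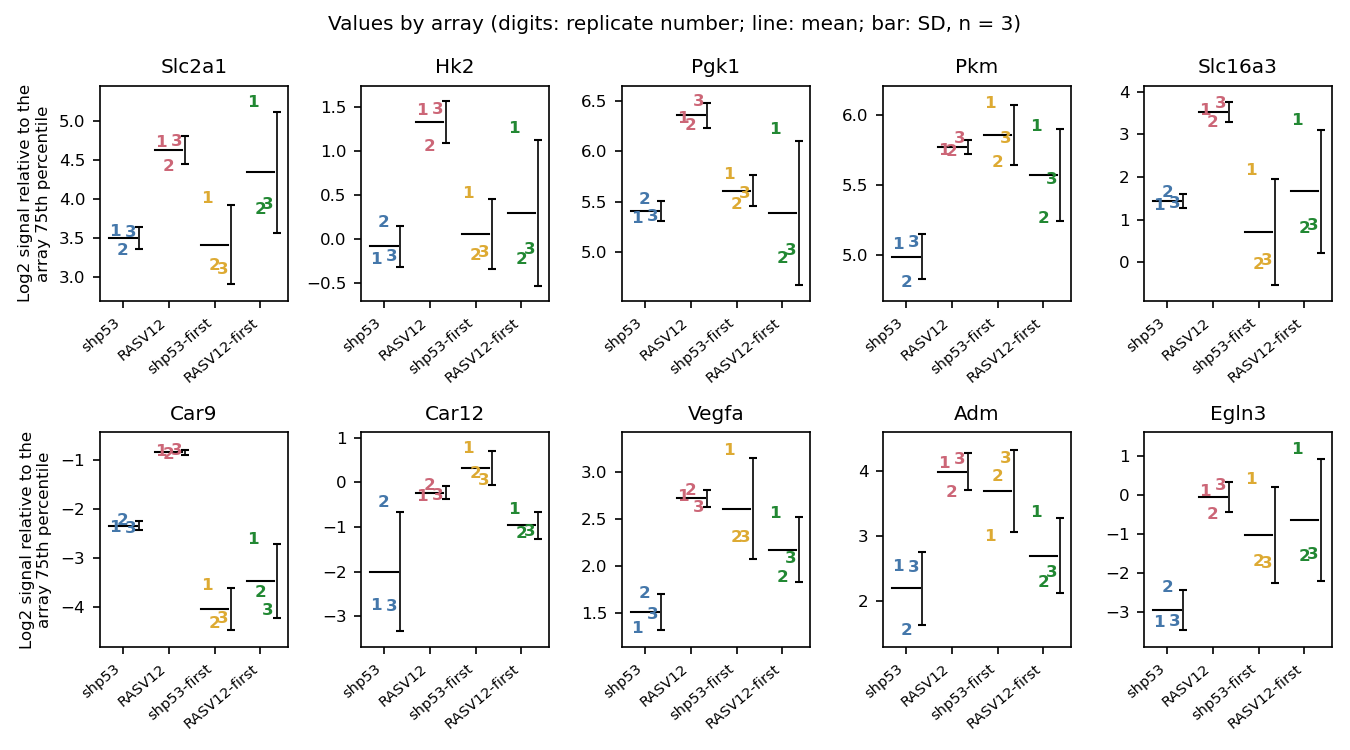
Log2 signal less the 75th percentile of its array (vertical axis, its own scale in each panel) for 10 of the genes called in at least 2 comparisons, with digits at the value of replicates 1, 2 and 3, a line at the group mean and a bar of ± 1 SD (n = 3). Replicate 1 lies above replicates 2 and 3 in both groups with 2 vectors in all panels except Adm in shp53-first cells.

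The collagen prolyl hydroxylases P4ha1 and P4ha2, which prepare collagen chains to fold, were called in no comparison. P4ha2 had means of 3.64 ± 0.22 in shp53, 3.14 ± 0.09 in RASV12, 2.46 ± 0.75 in shp53-first and 2.30 ± 1.34 in RASV12-first cells (n = 3 each, SD), with the spread widest where both vectors were present. Of 6 mitochondrial and stress genes, 1 was called, in a single comparison where 21.7% of all genes were called higher. Kdm3a, a histone demethylase that HIF raises, was higher in RASV12-first than in shp53 cells by 0.74 ± 0.26 (adjusted p = 0.0408), a call lost without any shp53 array and without RASV12-first replicate 1, among others. Bnip3, which promotes removal of mitochondria, had means of 3.33 ± 0.22 in shp53 and 4.90 ± 0.12 in RASV12 cells (SD, n = 3), and their arrays did not overlap. Its difference of 1.57, with an SE of 0.80 from the spread that all 4 groups share, was not called (adjusted p = 0.177). With the 4 arrays that stand apart left out Bnip3 was called, as were 58.5% of all genes either way. The error of that fit comes from the close pairs alone. Ankrd37, Ndrg1, Ddit4, an inhibitor of mTOR signalling, and Higd1a, a mitochondrial protein, were called in no comparison.

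The cells with both vectors were spread more widely than those with 1. The median SD over the members was 0.16 in shp53 and 0.15 in RASV12 cells, and 0.47 and 0.78 in shp53-first and RASV12-first cells. In RASV12-first cells replicate 1 lay above both other arrays in 35 of 35 members, against 51.3% of all genes, and at least 1 unit above their mean in 23, against 10.5%. The median difference was 1.34 for the members and 0.11 over all genes, from 0.51 for Pfkfb4 to 4.17 for Ankrd37. In shp53-first cells replicate 1 lay above both others in 30 of 35 members, against 42% of all genes, and at least 1 unit above their mean in 13, against 8.99%. There the median difference was 0.76, against -0.02 over all genes, with Ankrd37 again at the top (3.08) and Adm at the bottom (-1.07). Replicate 2 of the groups with 1 vector, which also stood apart over all genes, did not share this. It lay above both others in 16 members in shp53 cells (50% of all genes) and 13 in RASV12 cells (39.7%), with medians of -0.06 and -0.05.

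Ankrd37, a small ankyrin-repeat protein induced by HIF, read 0.30, -2.63 and -2.92 on the shp53-first and 1.68, -2.64 and -2.34 on the RASV12-first arrays. Aldoc read 0.73, -2.17 and -2.19 on the shp53-first and 2.67, -1.16 and -1.29 on the RASV12-first arrays. Bnip3 read 4.73, 2.76 and 2.72, and 5.92, 2.73 and 2.69, in that order. In these 3 genes both replicates 1 were within or above the range of the RASV12 arrays, except Bnip3 in shp53-first cells, which lay just below it. Replicates 2 and 3 lay below every shp53 array, except Ankrd37 on RASV12-first replicate 3, which lay within their range.

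Mitosis genes moved the other way on the same arrays. Their median was 0.31, 2.71 and 2.55 on shp53-first and 0.69, 3.13 and 2.94 on RASV12-first replicates 1, 2 and 3, and all 19 tested were at least 1 unit lower on replicate 1 in both groups. It was 1.46 to 1.67 on shp53 and 0.15 to 0.71 on RASV12 arrays. The part of this shift in the values of the glycolysis and hypoxia genes was not tested. Replicate 1 also had its own slide in every group, and the shp53 and RASV12 arrays of that slide each belonged to the close pair of their group. The part of the slide in this shift was not tested.

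**Figure D4:**
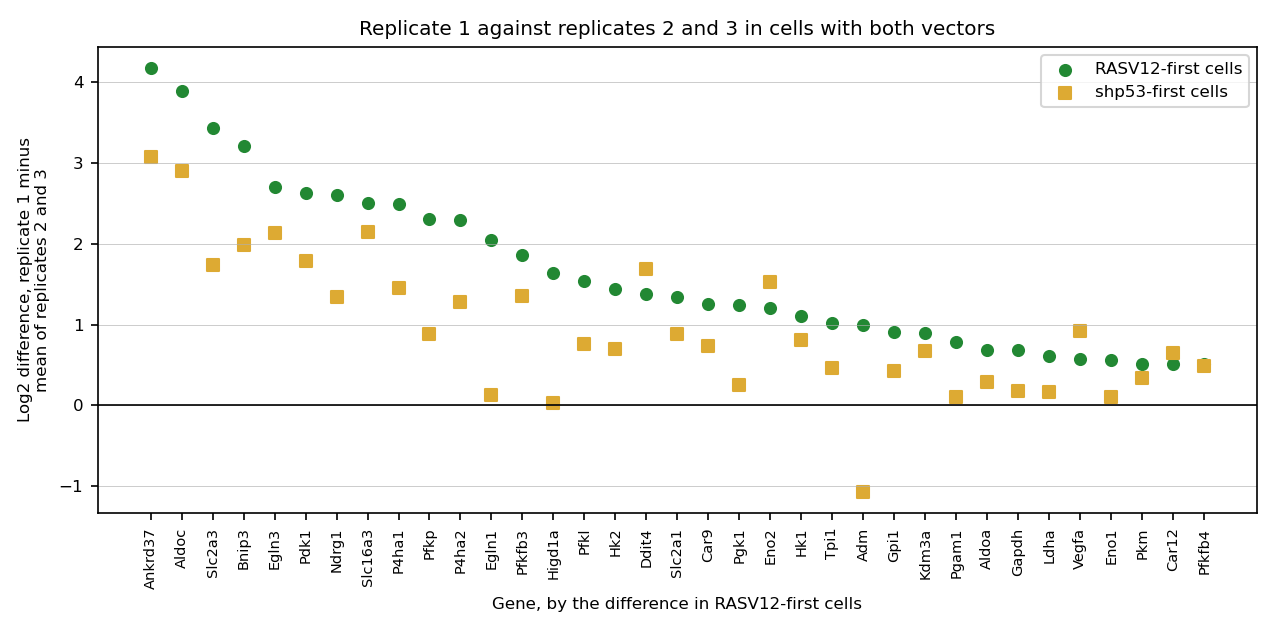
Log2 difference of replicate 1 from the mean of replicates 2 and 3 (vertical axis) for each of the 35 genes, ordered by the difference in RASV12-first cells (circles), with shp53-first cells as squares. Circles lie between 0.51 and 4.17 and squares between -1.07 and 3.08, with Adm as the one square far below 0.

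The calls in the cells with 2 vectors moved with these arrays. Against shp53 cells, shp53-first cells had 4 members higher and 1 lower (17.3% and 20.3% of all genes, 37.6% either way), with a median difference of 0.07. The arrays did not overlap for 11 of 35, against 53.3% of all genes. The 4 were Pkm, Car12, Vegfa and Adm, and the 1 was Car9. The call of Adm was lost without shp53-first replicate 3. By slide that median was 0.63, -0.21 and -0.23. With all 4 apart arrays left out there were 6 higher and 16 lower (35.4% and 33% of all genes, 68.4% either way), in a fit whose error comes from the close pairs alone. With close pairs averaged 0 were called and 4 were higher and 1 lower at an unadjusted p under 0.05 in limma, as were 12% and 15.8% of all genes. At the adjusted threshold 4.8% of all genes were higher, 6.98% lower and 11.8% called either way. Leaving out RASV12-first replicate 1, which narrows the shared spread, gave 6 higher and 3 lower (20.5% and 22.9% of all genes).

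RASV12-first cells had 6 members higher and 2 lower than shp53 cells (21.7% and 23.8% of all genes, 45.5% either way), with a median of 0.39. The arrays did not overlap for 11 of 35, against 56.6% of all genes. The 6 higher were Tpi1, Pgam1, Eno2, Pkm, Egln3 and Kdm3a, and the 2 lower Pfkfb4 and Car9. By slide the median was 1.39, -0.28 and -0.14. Without RASV12-first replicate 1 there were 2 higher (Pgam1 and Tpi1) and 7 lower (Car9, Higd1a, P4ha1, P4ha2, Pfkfb4, Pgk1 and Slc2a3), where 24.5% and 26.7% of all genes were called. There were, with all 4 apart arrays left out, 10 higher and 16 lower (36.1% and 36.2% of all genes, 72.3% either way). Pfkfb4 was lost without shp53 replicate 1 or 3 or RASV12-first replicate 2, and Egln3 without shp53 replicate 1 or 3 or RASV12-first replicate 1. Without RASV12-first replicate 2 there were 6 higher and 0 lower (16.9% and 19.8% of all genes). With close pairs averaged 0 were called in limma and 5 were higher at an unadjusted p under 0.05, as were 14.8% of all genes, while 17.2% of all genes were called either way at the adjusted threshold. Without shp53 replicate 1 or 3 it was 3 higher and 1 lower (15.3% to 15.5% of all genes higher and 19.2% to 19.4% lower). With arrays centred on their median, which moved the median of all genes to 0.36, there were 12 higher and 1 lower (34% and 15.6% of all genes, 49.6% either way).

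Against RASV12 cells, RASV12-first cells had 1 member higher, Eno2, and 6 lower, namely Hk2, Gpi1, Aldoa, Pgk1, Car9 and Adm (17.2% and 21.7% of all genes, 38.8% either way), with a median of -0.50. The arrays did not overlap for 9 of 35, against 51.1% of all genes. By slide the median was 0.52, -0.92 and -1.11, and 26, 3 and 2 of 35 members were above 0. Without RASV12-first replicate 1 there were 0 higher and 19 lower (18.9% and 24.7% of all genes), and with all 4 apart arrays left out 2 higher and 30 lower (29.5% and 37.3% of all genes, 66.8% either way). With close pairs averaged Car9 alone was called (10.3% of all genes either way). Without RASV12 replicate 1 or 3 there were 0 higher and 2 lower, and without RASV12-first replicate 2 or 3 there were 1 higher and 2 lower. In these 4 fits at most 12.7% of all genes were higher, and 16.6% to 17.2% lower. The calls of Gpi1, Pgk1 and Adm were lost without any of these 4 arrays, and that of Hk2 also without most others. Car9 and Aldoa were called lower in every one of the fits that left out 1 array.

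The shp53-first cells had 6 members lower than RASV12 cells and 0 higher, namely Slc2a1, Slc16a3, Hk2, Gpi1, Aldoa and Car9 (15.1% of all genes lower, 10.2% higher and 25.4% either way), with a median of -0.67 against -0.05 over all genes. The arrays did not overlap for 17 of 35, against 43.6% of all genes. By slide the median was -0.11, -0.89 and -0.91. There were 10 lower without shp53-first replicate 1 (15.3% of all genes lower, 10.9% higher), 14 without RASV12-first replicate 1 (18.3% lower, 13.1% higher) and 26 lower and 1 higher without the 4 arrays that stand apart (33.3% and 24.8% of all genes, 58.2% either way). With close pairs averaged Car9 alone was called (2.72% of all genes either way). A single call, that of Car9, was left without shp53-first replicate 2 or 3 or RASV12 replicate 1 or 3, where 9.28% to 11% of all genes were lower and 5.55% to 6.73% higher. The comparisons against RASV12 cells share those 3 arrays, so their members are not independent of each other.

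The central comparison of the series is that of the 2 orders of the same vectors. In limma over the 12 arrays 0 of 35 members differed between RASV12-first and shp53-first cells, where 7.33% of all genes were higher, 8.47% lower and 15.8% called either way. The arrays did not overlap for 2 of 35, against 32.1% of all genes. At an unadjusted p under 0.05 there were 4 higher and 2 lower, or 11.4% and 5.71% of the members, against 14.3% and 14.6% of all genes. The median difference was 0.38 for the members, and the median by slide was 0.76, -0.0046 and 0.03. Without RASV12-first replicate 1 there were 0 higher and 4 lower (Adm, Higd1a, Pgk1 and Slc2a3), against 8.24% and 11.2% of all genes. Without shp53-first replicate 1 there were 4 higher and 1 lower (7.62% and 7.96% of all genes). Centring on the array median gave 6 higher and 0 lower (13.6% and 6.25% of all genes), with the median of all genes at 0.25, and with all 4 apart arrays left out there were 11 higher and 9 lower (24% and 24.1% of all genes, 48% either way).

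Arrays of the 2 orders with the same replicate number deviated together, so the paired values stand beside these. Deviations were taken from the group mean, and replicates 2 and 3 were a close pair in both orders. A likeness at replicate 1 therefore carries over to replicates 2 and 3, and a pairing of those was not shown. With the replicate number as a block in the fit of 12 arrays 2 members were called, both higher in RASV12-first cells (Slc2a1 and Kdm3a), or 5.71% of the members, against 7.17% of all genes higher and 8.53% lower. In a fit of the 2 orders alone with the replicate block, chosen after the pairing was checked, 7 were higher and 1 lower (7.66% and 9.63% of all genes). The 7 were Hk1, Aldoc, Eno2, Slc2a1, Slc16a3, Ddit4 and Kdm3a, and the 1 lower in RASV12-first cells was Car12. Their adjusted p ran from 0.00800 to 0.0460 in this fit and from 6.44e-05 to 0.991 over all settings. The differences at replicates 1, 2 and 3 were 1.24, 0.71 and 0.83 for Slc2a1, 1.19, 0.82 and 0.83 for Slc16a3, and 0.79, 0.95 and 1.29 for Eno2. For Car12 they were -1.38, -1.36 and -1.14. The paired fit that picked these 4 genes favours differences that are alike at the 3 numbers, so these values describe its calls and do not test them. In all, 14 members were higher in RASV12-first cells at every replicate number and 5 were lower at each (Pfkfb4, Pkm, Slc2a3, Car12 and Vegfa), against 30.8% and 28% of all genes, or 40% and 14.3% of the members.

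**Figure D5:**
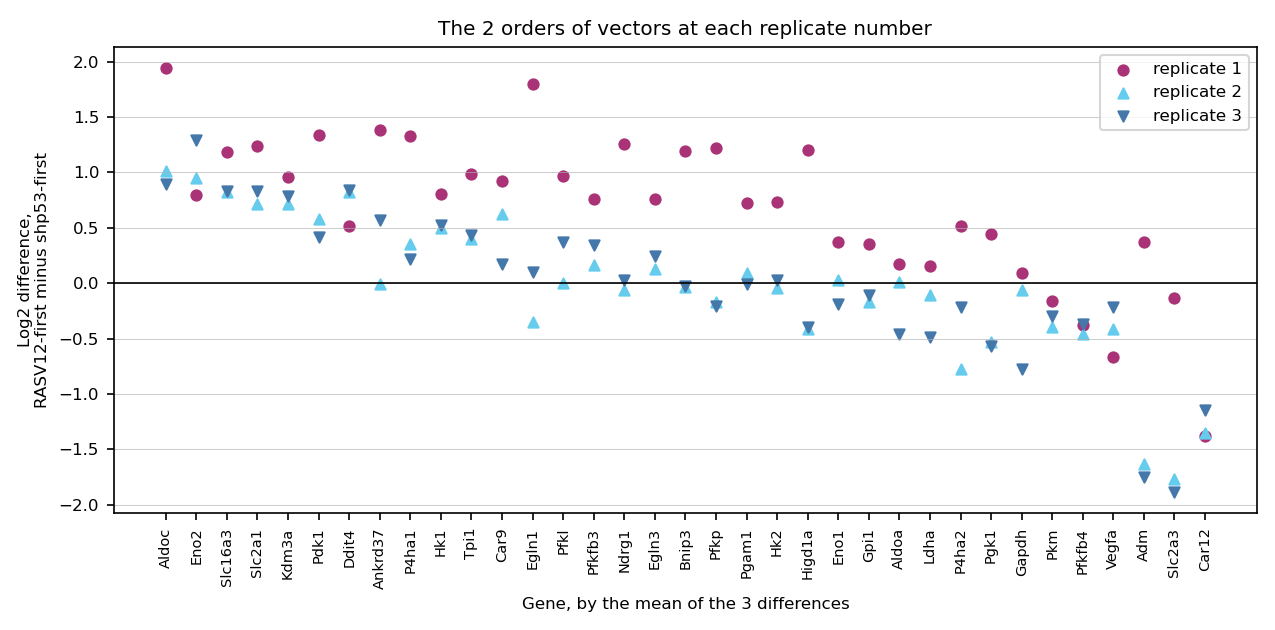
Log2 difference of RASV12-first from shp53-first cells (vertical axis) at replicate numbers 1 (circles), 2 (upward triangles) and 3 (downward triangles) for the 35 genes, ordered by the mean of the 3. At the left Aldoc, Eno2, Slc16a3, Slc2a1 and Kdm3a are above 0 at all 3 numbers, and at the right Car12 is below 0 at all 3, while Adm and Slc2a3 range widely.

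The HIF subunits and their regulators were read from a list of 13 genes, all tested. Hif1a, the oxygen-regulated subunit, was called in no comparison, with means of 1.80 ± 0.14 in shp53, 2.58 ± 0.16 in RASV12, 2.33 ± 0.47 in shp53-first and 1.89 ± 0.51 in RASV12-first cells (n = 3 each, SD). Epas1 (HIF-2 alpha), Vhl and Hif1an, which hydroxylates HIF at an asparagine, were also called in none. Arnt, the partner of Hif1a, was lower in RASV12 than in shp53 cells, at -0.85 ± 0.19 (adjusted p = 0.00848), and higher in RASV12-first than in RASV12 (1.30 ± 0.19, adjusted p = 5.85e-04) and shp53-first cells (0.95 ± 0.19, adjusted p = 0.00789). Cited2, which competes with HIF for its coactivators, was higher than in shp53 cells in all groups with RASV12, by 2.38 ± 0.15 in RASV12, 1.80 ± 0.15 in shp53-first and 2.08 ± 0.15 in RASV12-first cells (adjusted p = 3.80e-06, 1.30e-05 and 2.71e-06). Arnt2 was well above background on 1 of 3 RASV12-first arrays, where its mean was -7.14 ± 1.11 against -3.24 ± 0.23 in shp53-first cells (SD, n = 3). Siah2, a ubiquitin ligase that targets Egln enzymes, was lower in RASV12 than in shp53 cells, at -0.79 ± 0.19 (adjusted p = 0.0114). In all the list had 1 higher and 2 lower in RASV12 against shp53 cells (14.3% and 12.8% of all genes). Against shp53 cells it had 2 and 0 in shp53-first (17.3% and 20.3%) and 3 and 1 in RASV12-first cells (21.7% and 23.8%).

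Other genes of glycolysis and pyruvate use, 35 tested of 40 listed, were also read. In RASV12 against shp53 cells 3 were higher and 6 lower (14.3% and 12.8% of all genes), with a median of -0.06. In RASV12-first against shp53 cells 6 were higher and 13 lower (21.7% and 23.8% of all genes). Mpc2, a subunit of the carrier that brings pyruvate into mitochondria, was lower than in shp53 cells in all 3 other groups, at -0.53 ± 0.11 in RASV12, -0.78 ± 0.11 in shp53-first and -1.20 ± 0.11 in RASV12-first cells (adjusted p = 0.00415, 3.35e-04 and 1.34e-05). Pdha1, a subunit of pyruvate dehydrogenase, was lower in both groups with 2 vectors than in shp53 cells, at -0.89 ± 0.19 in shp53-first and -1.36 ± 0.19 in RASV12-first cells (adjusted p = 0.00453 and 2.62e-04). Bpgm, which makes 2,3-bisphosphoglycerate, was lower than in shp53 cells in all 3 other groups, at -0.96 ± 0.24, -1.63 ± 0.24 and -1.04 ± 0.24 (adjusted p = 0.0124, 4.66e-04 and 0.00483). Galm, which interconverts the forms of free hexoses, was higher in RASV12-first than in RASV12 cells by 1.55 ± 0.22 (adjusted p = 5.12e-04).

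Other hypoxia response genes, 48 tested of 50 listed, had 11 higher and 9 lower in RASV12 against shp53 cells (14.3% and 12.8% of all genes). Their median of 0.05 equals that of all genes to 2 decimals. Lox, which crosslinks collagen and is a known HIF target, was lower in RASV12 than in shp53 cells, at -1.48 ± 0.23, and lower still in RASV12-first cells, at -4.79 ± 0.23 against shp53 (adjusted p = 0.00111 and 2.11e-07). Nos2, the inducible nitric oxide synthase, was higher in RASV12 than in shp53 cells by 4.03 ± 0.38 (adjusted p = 4.51e-05). Sap30, part of a histone deacetylase complex, was higher in RASV12-first than in shp53 cells by 1.71 ± 0.14, and the phosphatase gene Dusp1 was lower, at -2.32 ± 0.14 (adjusted p = 9.38e-06 and 8.37e-07). On replicate 1 of the cells with 2 vectors this list shared the pattern of the members. In shp53-first cells 19 of 48 genes were at least 1 unit above the mean of the other arrays (8.99% of all genes). In RASV12-first cells 24 of 48 were (10.5%), and the medians of the list were 0.87 and 1.01. For the other glycolysis genes those medians were 0.11 and 0.25.

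Of 8 metabolic genes linked to p53, 1 was higher and 1 lower in RASV12 against shp53 cells (14.3% and 12.8% of all genes). Sesn1, a stress-induced inhibitor of mTOR, was lower at -1.61 ± 0.17, and Cpt1c, a carnitine palmitoyltransferase relative, was higher by 0.92 ± 0.12 (adjusted p = 7.60e-05 and 3.72e-04). Tigar, which lowers fructose 2,6-bisphosphate, was lower in shp53-first and RASV12-first than in RASV12 cells, at -1.09 ± 0.19 and -0.82 ± 0.19 (adjusted p = 0.00312 and 0.00762). Its means were 0.77 ± 0.10 in shp53 and 0.88 ± 0.20 in RASV12 cells (n = 3 each, SD). Gls2, a mitochondrial glutaminase, was higher in RASV12-first cells than in each other group, by 2.62 ± 0.31 against shp53, 1.80 ± 0.31 against RASV12 and 1.88 ± 0.31 against shp53-first cells (adjusted p = 1.00e-04, 0.00152 and 0.00264).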

How the data were processed

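Per the labels, Cy3-labelled RNA (100 ng each) was hybridised to 12 one-colour Agilent arrays. The authors deposited processed signal intensity per spot, background-subtracted per the file headers, with flags (another kind of value, 0 or 1) for spots well above background or outlying, and a log2 table of 25916 probes. Its columns correlated at r 0.990 to 0.9998 with values rebuilt from the arrays less the shp53 median. The submitters' processing notes name Agilent Feature Extraction 10.7.3.1 and the file headers 11.5.1.1.

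Each log2 intensity was taken relative to the 75th percentile of the 43020 non-control spots of its array, and 1717 flagged spot values (0.333%) were left out. A probe was kept if 1 group or more had it well above background on its 3 arrays (23899 of 39429). Accessions gave gene names through RefSeq (GRCm38.p6, names only; the headers' build is mm9). limma 3.58.1 in R 4.3.3 fitted 1 mean per group. The method was tested on simulated data with independent noise on each array. That setting lacks the close pairs of these arrays, so it cannot tell the rate of false calls here. Between 56.6% and 62.4% of spots per array were well above background.

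Arrays of the 2 orders with the same replicate number had correlated deviations (0.60, 0.45 and 0.32), and other pairs of groups did not at every number. The replicate block, which is also the slide, was therefore read as a pairing for that comparison alone. These correlations cannot tell a pairing at every number from a likeness at replicate 1 alone, and arrays with different numbers were not compared. Normexp used the median spot signal, as the mean was not in the files used. Members, lists and the 2 settings for close arrays were chosen with earlier results of these data known. Named genes were the members, with values per array for those called in at least 2 comparisons, up to 4 genes per further list by the smallest F-test p, and fixed regulators. In the comparisons where a member was called, none of its kept probes disagreed in sign.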

Additional observations from a re-analysis of the deposited data

How the results depend on the processing

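Of the 42 calls of members, 13 were kept whichever array was left out, 0 reversed under any alternative, all 42 were lost with normexp background correction and 40 when close pairs were averaged. Without the 4 arrays that stand apart 0 calls were lost. Normexp called 0 members in every comparison and in the F test (5.75% of all genes), with at most 17 at an unadjusted p under 0.05. Averaged pairs called 1 in each comparison of 2-vector cells with RASV12 cells, 1 in the F test (17.3% of all genes) and 0 elsewhere. The F test called 17 members (58.4% of all genes). Quantile scaling called 7 in RASV12 against shp53 cells (27.1% of all genes) and 11 in the F test (58.5%). Centring on the array median called 13 in RASV12-first against shp53 cells (49.6% of all genes) and 6 between the orders (19.8%).

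Without the 4 arrays, 30 members were called in RASV12 against shp53 cells (58.5% of all genes). Against shp53 cells there were also 22 in shp53-first (68.4%) and 26 in RASV12-first cells (72.3%). Against RASV12 cells there were 32 in RASV12-first (66.8%) and 27 in shp53-first cells (58.2%). Between the orders 20 were called (48%), and the F test called 33 (85.6%). Leaving out 1 array at a time gave 5 to 20 called in RASV12 against shp53 cells. It gave 4 to 9 in shp53-first and 4 to 10 in RASV12-first against shp53 cells. Against RASV12 cells it gave 2 to 19 in RASV12-first and 1 to 14 in shp53-first cells. It gave 0 to 5 between the orders and 6 to 25 in the F test. The shares of all genes called moved in the same fits. At the low end they were 18.9% to 19.6% in RASV12 and 34.4% to 34.9% in RASV12-first against shp53 cells. Against RASV12 cells they were 28.8% to 29.8% in RASV12-first and 14.8% to 17.7% in shp53-first cells. The 20 stood beside 2526 genes higher and 2185 lower of 14444, the 9 beside 43.5% and the 5 between the orders beside 15.6%. The F test called 25 without RASV12-first replicate 1, where it called 9468 of 14440 genes. It called 6 where it called 49.6% to 50.3% of all genes. Without RASV12-first replicate 1, 43.5% of all genes were called in RASV12-first and 31.4% in shp53-first against RASV12 cells. The replicate block called 2 members between the orders, and 8 with the orders fitted alone, and moved no other count by over 1.5 times. The causes were not tested.

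No call reversed, but 14 differences that were not called became called in the other direction. Without the 4 arrays these were, against shp53 cells, Ankrd37 (-0.39), Bnip3 (-0.71) and Ndrg1 (-0.50) in shp53-first cells and Aldoc (-0.42), Bnip3 (-0.74), Egln1 (-0.38), Gpi1 (-0.27), Ndrg1 (-0.51), Pfkfb3 (-0.30) and Slc16a3 (-0.52) in RASV12-first cells. Against RASV12 cells they were Egln1 (-0.51) and Pgam1 (-0.26) in RASV12-first cells. Between the orders Higd1a changed to -0.40 without the 4 arrays and to -0.41 without RASV12-first replicate 1, the lowest of -0.41 to 0.44 over the arrays left out singly. No filter, a stricter filter, averaged probes and the authors' deposited table kept each count within 1.5 times. The number of arrays limits the precision.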
